A study of Mus musculus with 6 samples.

Results

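E2A peaks were examined at 41 genes for neuronal and synaptic adhesion molecules of 13 families: neurexins, neuroligins, LRRTMs, MDGAs, FLRTs, CADMs, IgLONs, contactins, contactin-associated proteins, NCAMs, the L1 family, DSCAMs and LINGOs. A peak belonged to a gene when the deposited annotation named that gene for it, at any distance. Of the 41 genes, 40 were among the 12140 genes named in at least 1 of 5 peak lists, and L1cam, a homophilic axonal adhesion molecule of the L1 family, was named in none. These 40 genes are 97.6% of the group, where the lists named 52.1% of 21900 protein-coding genes in RefSeq, without matching for gene length.

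The 5 lists come from chromatin immunoprecipitation and sequencing (ChIP-seq) with an antibody against E2A in neural stem cells (source name "neuronal stem cells") from C57BL/6J mouse embryos at E12.5, kept proliferating in medium that held 20 ng/ml of FGF-2 and as much EGF. The genotypes were E12 KO with 1 library (E12KO), E47 KO with 1 library (E47KO) and wildtype with 3 libraries (wt replicates 1, 2 and 3), and all cells received the same fixation and no treatment. How the knockout alleles were made is not given in the sources used here, and whether the wt libraries come from separate cultures is not stated. The lists held 25229 peaks in E12KO and 22176 in E47KO, against 6814, 12772 and 24194 in wt replicates 1, 2 and 3. The name of the wt replicate 1 list carries a different false discovery rate from the names of the others. The lists give no read totals, so depth is unknown, and they hold no expression values, so neither the labelled cell type nor the loss of either protein could be checked. With 1 library per knockout, differences between genotypes have no test.

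E2A is the product of Tcf3, whose alternative exons give the basic helix-loop-helix proteins E12 and E47, and both bind E-box DNA as dimers, often with proneural partners. Adhesion molecules of these families join growing neurites to each other and line up the presynaptic and postsynaptic membranes. Many are encoded by very long genes with large first introns, so the transcript length given in the tables (geneLength of the longest transcript that the annotation used) is set beside the counts.

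The adhesion genes had 235 peaks in E12KO and 194 in E47KO, against 70, 119 and 225 in wt replicates 1, 2 and 3. These were 0.931% and 0.875% of the E12KO and E47KO lists, against 1.03%, 0.932% and 0.930% of the 3 wt lists (mean 0.963% ± 0.0557, SD, n = 3). The E12KO share lay within the wt range and the E47KO share just below it, and the wt counts spread from 70 to 225 with the length of the lists (mean 138 ± 79.2, SD, n = 3). A peak was present at 38 of the genes in E12KO and at 37 in E47KO, against 29, 31 and 37 in the wt lists. Of all 12140 genes named, 86.3% had a peak in E12KO and 77.9% in E47KO, against 33.8%, 53.5% and 82.1% in wt replicates 1, 2 and 3. The median peak of the adhesion genes was 549 bp wide in E12KO and 489.5 bp in E47KO, against 406, 374 and 507 bp in the wt lists, and in each list it was narrower than the median of all peaks (616 and 550 bp in the knockouts, 432.5, 420 and 549 bp in wt).

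**Figure D1:**
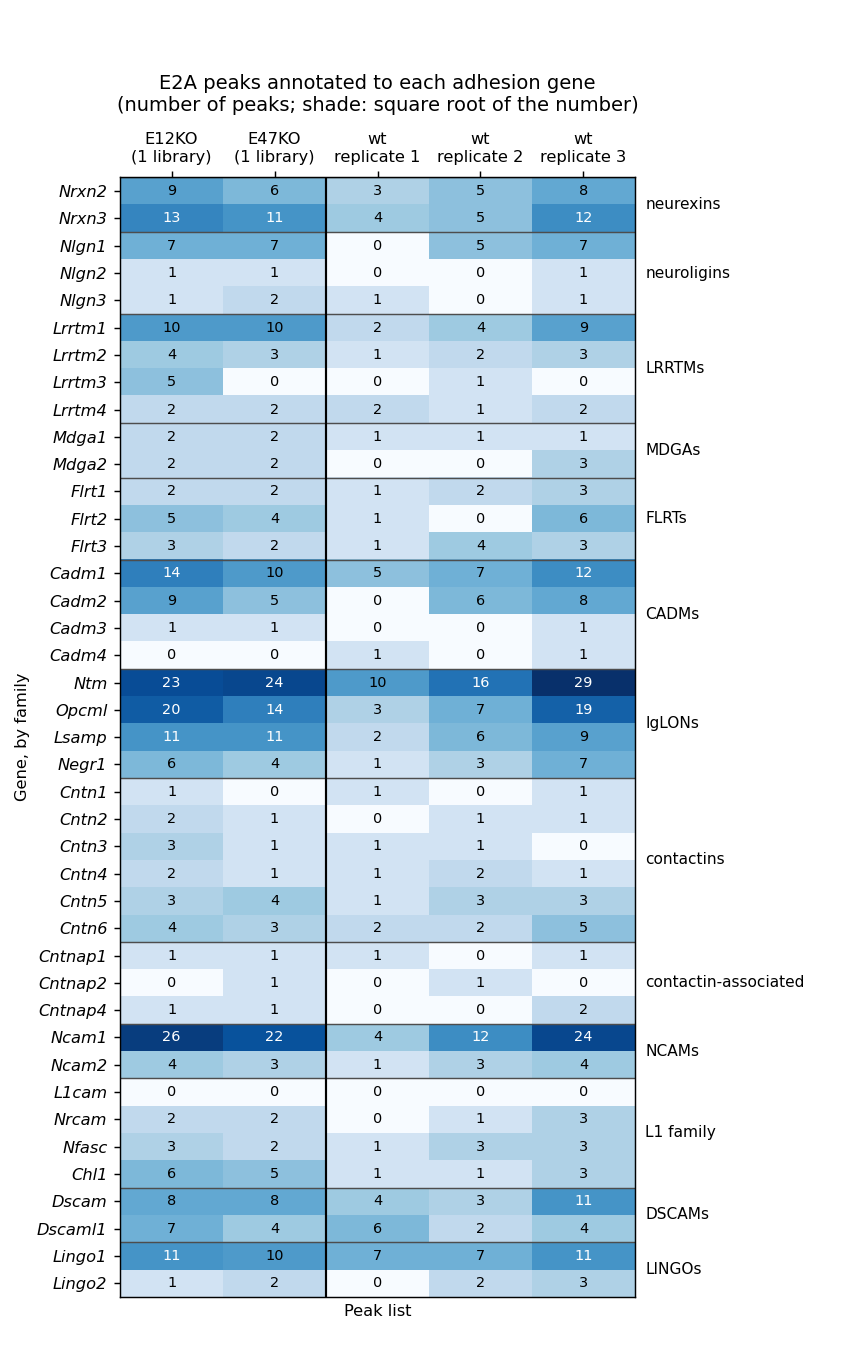
Number of E2A peaks annotated to each of the 41 adhesion genes (rows, grouped by family) in each of the 5 peak lists (columns, 1 library each; the numbers are peak counts and the shade is their square root). Ntm, Ncam1 and Opcml had the most peaks in E12KO, E47KO and wt replicate 3, L1cam had none, and wt replicate 1 had few or none at most genes.

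Overlapping peaks were merged into 313 regions, 259 with a wt peak and 54 with knockout peaks alone. A region in at least 2 of the 3 wt lists was called a wt consensus region, and there were 112 of these at 31 adhesion genes. The 31 genes are 77.5% of the 40 named, where 53% of all named genes had a consensus region. A region in all 5 lists was found at 17 of the 40 (42.5%), where 22.9% of all named genes had one. These shares are not matched for length: the median geneLength was 285 kb for the 40 genes, against 21.97 kb for all genes named. The number of consensus regions rests on the wt lists used: it was 51 at 22 genes without wt replicate 2, 40 at 17 genes without wt replicate 3 and 100 at 27 genes without wt replicate 1. Of the 112, 61 were in wt replicates 2 and 3 and not in the short list of wt replicate 1.

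Promoters held 28 of the 313 regions, at 23 of the 40 genes, and 14 of these were consensus regions. The sequences of 4 promoters with at least 1 E-box are shown to set its letters beside regions held by 2 to 5 lists. The promoters examined were 8, each with 1 start in both the peak tables and RefSeq and a region in the window. Of these 8, 3 had no CANNTG, those of Mdga1, Ncam2 and Negr1. The promoter of Lrrtm2, with a region in all 5 lists, was left out of the 8, so they are not a full set. The 300 bases run from 250 before to 50 after the RefSeq start (GRCm38.p6), 5′ to 3′ on the strand of the gene, with every CANNTG E-box in capitals. The letters searched were CANNTG and, within it, CAGCTG or the pair CAGGTG and CACCTG, which are reverse complements of each other; the first of these patterns, like CAGCTG, reads the same on both strands. The peaks have mm9 coordinates, so each region is placed by its distance from the start site in the peak tables, which may differ from the RefSeq start.
Cntn6 (chr6:104492794-104493093, + strand): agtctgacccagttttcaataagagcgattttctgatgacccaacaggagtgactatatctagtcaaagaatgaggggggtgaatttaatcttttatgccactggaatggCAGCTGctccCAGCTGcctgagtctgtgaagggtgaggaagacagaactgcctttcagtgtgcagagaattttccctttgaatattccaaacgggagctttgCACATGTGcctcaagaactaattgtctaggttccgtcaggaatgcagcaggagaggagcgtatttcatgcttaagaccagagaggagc
Flrt3 (chr2:140671427-140671726, - strand): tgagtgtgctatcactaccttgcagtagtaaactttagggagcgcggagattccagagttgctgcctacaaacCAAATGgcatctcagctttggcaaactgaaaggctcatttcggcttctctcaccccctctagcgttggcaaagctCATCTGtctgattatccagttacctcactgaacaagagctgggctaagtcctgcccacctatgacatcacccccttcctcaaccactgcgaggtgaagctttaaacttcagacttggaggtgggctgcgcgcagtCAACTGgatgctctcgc
Nlgn2 (chr11:69837735-69838034, - strand): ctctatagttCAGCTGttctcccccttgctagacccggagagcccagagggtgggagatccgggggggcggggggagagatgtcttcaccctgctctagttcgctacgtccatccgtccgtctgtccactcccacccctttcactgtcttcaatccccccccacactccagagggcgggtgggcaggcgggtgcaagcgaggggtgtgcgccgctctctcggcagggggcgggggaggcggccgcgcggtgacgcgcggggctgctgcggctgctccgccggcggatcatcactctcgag
Cadm4 (chr7:24481773-24482072, + strand): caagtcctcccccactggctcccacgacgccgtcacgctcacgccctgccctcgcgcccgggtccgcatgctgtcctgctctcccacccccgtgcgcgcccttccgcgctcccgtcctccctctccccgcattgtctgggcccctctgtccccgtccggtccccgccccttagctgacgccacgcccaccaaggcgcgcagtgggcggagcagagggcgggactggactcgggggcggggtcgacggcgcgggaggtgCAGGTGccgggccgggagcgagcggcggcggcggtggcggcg

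Cntn6, a contactin of the axon surface, had a region in all 5 lists from 368 bp before to 505 bp after its start, which covers the whole window. Its promoter holds CAGCTG at 140 and again at 130 bases upstream, and an overlapping CACATG and CATGTG at 38 and 36 bases upstream. Flrt3, a leucine-rich repeat protein that binds latrophilins and Unc5 receptors, had a region in E12KO, E47KO and wt replicates 2 and 3 from 316 bp before to 411 bp after its start. There, CAAATG lies 177 bases and CATCTG 102 bases upstream, with CAACTG 33 bases downstream. Nlgn2, the neuroligin of inhibitory synapses, had a region in E12KO, E47KO and wt replicate 3 from 268 bp before to 182 bp after its start, with 1 CAGCTG at 240 bases upstream. Cadm4, an immunoglobulin adhesion molecule of glia and axons, had a region from 445 to 70 bp before its start, present in wt replicates 1 and 3 and absent from both knockouts. Its 1 E-box, CAGGTG, lies 8 bases after the start and outside that region. Of the 41 genes, 32 matched the RefSeq promoter table, with 47 promoters. CANNTG was in 70.2% of these 47 and in 72.3% of all 32851 promoters, CAGCTG in 17.0% and 16.3%, and CAGGTG or CACCTG in 14.9% and 20.2%. At least 2 CAGCTG, as in Cntn6, were in 3 of the 47 (6.38%) and in 1.90% of all.

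The place that held most regions of the adhesion genes was the gene itself. Of the 112 consensus regions, 61 were inside the annotated gene (54.5%, exact 95% interval 44.8 to 63.9), where 31.2% of all 12322 consensus regions were. The share was 43.6% of the 39 regions in all 3 wt lists, 45.1% without wt replicate 2 and 47.5% without wt replicate 3. Promoters held 14 of the 112 (22.4% of all), other genes 5 (4.46%, 6.61% of all) and intergenic sequence 32 (28.6%, 39.8% of all). These intervals, here and in what follows, cover counting error only. The median distance to the start site was 95.1 kb, against 21.3 kb for all consensus regions. Within 10 kb lay 18 of the 112 regions (16.1%, interval 9.81 to 24.2), where 37.9% of all consensus regions did.

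Transcript length moves with the place of the regions. The median geneLength of the 40 genes was 285 kb, against 21.97 kb for all genes named. Among genes of 500 kb and over, 40 of 51 adhesion gene regions were inside the gene (78.4%, interval 64.7 to 88.7), as were 75.1% of the 523 regions of all genes of that length. At 100 to 500 kb the shares were 45.5% of 33 regions (28.1 to 63.6) and 55.1% of 3272, and under 100 kb they were 21.4% of 28 (8.30 to 40.95) and 19.3% of 8527. For the share inside the gene, the interval of the adhesion genes held the value of all genes within each length class. For intergenic sequence at 100 to 500 kb it did not, with 15 of 33 regions (45.5%, 28.1 to 63.6) against 27.8% of 3272. Of these 15, 6 were at Cadm1 and 5 at Ncam1.

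**Figure D2:**
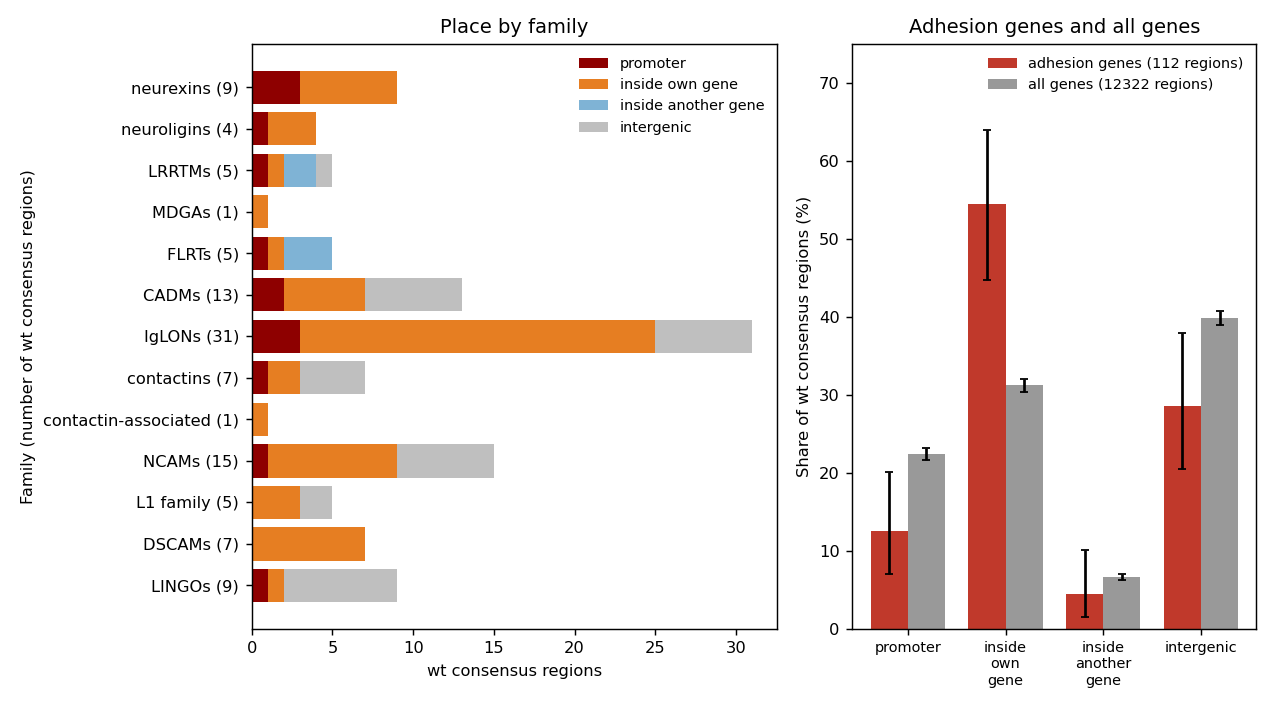
Left, number of wt consensus regions of each adhesion gene family (rows), coloured by place; right, share of wt consensus regions at each place for the adhesion genes (red, 112 regions) and all genes (grey, 12322 regions), with exact 95% intervals. IgLONs held 31 regions, 22 of them inside the genes, and the share inside the own gene was 54.5% for the adhesion genes and 31.2% for all genes.

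Neurexins are presynaptic receptors, and both listed here had regions. Nrxn3 had 13 peaks in E12KO and 11 in E47KO, against 4, 5 and 12 in wt replicates 1, 2 and 3. Of its 5 consensus regions, 4 lay inside the longest transcript of 1501 kb, and the fifth, in an intron of another annotated Nrxn3 transcript, lay 31.2 kb before its start. In all 5 lists were 4 of these 5, with wt replicate 1 folds of 6.41 to 7.52. A fold is the enrichment of the wt replicate 1 peak over the caller's background, as the authors gave it, and no other list holds one. Nrxn2 had 9 and 6 peaks in E12KO and E47KO, against 3, 5 and 8 in wt. Its annotated transcripts span 125 kb, although the longest of them is 48.0 kb. Of the 4 Nrxn2 consensus regions, E12KO had a peak in each and E47KO in 1. The 3 without an E47KO peak were a promoter (chr19:6418263-6419254, 7 bp before the start, wt replicates 2 and 3), a region in the 3′ UTR of a transcript (chr19:6464863-6465497, wt replicates 2 and 3) and a second promoter (chr19:6497216-6497883, all 3 wt lists). That second promoter had a fold of 20.6, the highest of the family. The Nrxn2 region in all 5 lists was at chr19:6451927-6453980, with a fold of 17.1.

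Neuroligins are the postsynaptic partners of neurexins. Nlgn1, found at excitatory synapses, had 7 peaks in each knockout, against 0, 5 and 7 in wt replicates 1, 2 and 3. Its 3 consensus regions lay in intron 3 of the transcript annotated, 284 to 449 kb from the start, and E47KO had no peak at chr3:25768072-25768413. Nlgn3 had 1 peak in E12KO and 2 in E47KO, against 1, 0 and 1 in wt, and its consensus region at a promoter, chrX:98495363-98495913 (fold 6.29) was in all lists except wt replicate 2. Nlgn2 had 1 peak in each of E12KO, E47KO and wt replicate 3, at the promoter shown above, and no consensus region.

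LRRTMs are postsynaptic leucine-rich repeat proteins that bind neurexins, and most of their genes sit inside genes of the alpha-catenin family. Some of their regions were inside those host genes. Lrrtm1 had 10 peaks in each knockout, against 2, 4 and 9 in wt. Both of its consensus regions were in all 5 lists: one in an intron of Ctnna2, the host gene for an alpha-catenin of neurons (chr6:77000479-77001441, fold 5.91), and one 1.64 Mb upstream in intergenic sequence (chr6:75552294-75553330, fold 16.4). Lrrtm1 is itself 2.80 kb long, and 4 of its 12 regions lay in Ctnna2. Lrrtm2 had 4 and 3 peaks in E12KO and E47KO, against 1, 2 and 3 in wt. Its promoter region was in all 5 lists, with the midpoint of its wt replicate 3 peak 4 bp from the start (chr18:35374348-35375018, fold 9.19). The other Lrrtm2 consensus region lay in an intron of Sil1, a chaperone cofactor, and was in all lists except wt replicate 1. Lrrtm4 had 2 peaks in each knockout, against 2, 1 and 2 in wt, and its consensus region lay in an intron of Lrrtm4 itself, 706 kb from the annotated start, although the longest transcript in the tables is 6.06 kb. Lrrtm3 had 5 peaks in E12KO and 0 in E47KO, against 0, 1 and 0 in wt. Of its 5 regions, 4 were in E12KO alone, 3 of them in introns of Ctnna3, and none was a consensus region.

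MDGAs are membrane-anchored immunoglobulin proteins that bind neuroligins and keep neurexins off them. Mdga1 had 2 peaks in each knockout, against 1 in each wt list. Its region in intron 1 was in all 5 lists (chr17:30010163-30011409, fold 8.04), and the other, at the promoter (chr17:30024660-30026386), was in both knockouts and in no wt list. Mdga2 had 2 peaks in each knockout, against 0, 0 and 3 in wt, and no consensus region. Yet 3 consensus regions inside Mdga2 were annotated to Rpl10l, a ribosomal protein gene, and are in no Mdga2 count. Of 76 consensus regions inside the adhesion genes, 7 in 4 genes were annotated to another gene in this way: besides Mdga2, 2 in Negr1, 1 in Nrxn2 and 1 in Cntn5.

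FLRTs are receptors that bind latrophilins and guide migrating neurons and axons. Flrt1 had 2 peaks in each knockout, against 1, 2 and 3 in wt, and all 3 of its regions lay in introns of Macrod1, a hydrolase gene that contains it. The Flrt1 region at chr19:7229400-7230359 was in all 5 lists with a fold of 15.8. Flrt3 had 3 and 2 peaks in E12KO and E47KO, against 1, 4 and 3 in wt. Its other 5 regions lay in introns of Macrod2, 4 of them outside Flrt3 itself, and 1 was a consensus region. Flrt2 had 5 and 4 peaks, against 1, 0 and 6 in wt, and its consensus region in an intron (chr12:96982505-96982960, fold 8.87) had a peak in E12KO and none in E47KO.

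CADMs are immunoglobulin adhesion molecules, also called SynCAMs. The region with the highest fold of all adhesion genes was upstream of Cadm1. Cadm1 had 14 and 10 peaks in E12KO and E47KO, against 5, 7 and 12 in wt, and 8 consensus regions (4 without wt replicate 2, 2 without wt replicate 3). The region at chr9:47214709-47215902, 123 kb before the start, was in all 5 lists, and its fold of 34.5 was number 123 of the 6814 peaks of wt replicate 1. Cadm1's promoter region (fold 5.87) and another 172 kb upstream (fold 6.73) were also in all 5 lists, and E47KO had no peak at chr9:47431851-47432318 inside the gene. Cadm2 had 9 and 5 peaks, against 0, 6 and 8 in wt, with 4 consensus regions inside its 965 kb, all of them in both knockouts and absent from wt replicate 1. Cadm4 had no peak in either knockout, against 1, 0 and 1 in wt, all at the promoter shown above (chr7:25266597-25266972, fold 5.94). Cadm3 had 1 peak in each knockout, against 0, 0 and 1 in wt, and no consensus region.

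IgLONs are membrane-anchored immunoglobulin proteins of neurons that modulate neurite outgrowth. They held the most regions: 31 of the 112 (27.7%) at 4 genes of 755 to 2192 kb. That was 7.75 per gene, close to the 7.5 of NCAMs. Their regions at promoters or inside the genes numbered 0.495 per 100 kb of transcript. This value was higher for FLRTs (1.67), NCAMs (1.25), LRRTMs (1.13), DSCAMs (0.776), neurexins (0.581) and CADMs (0.525), and lower for the other families. A further IgLON, Iglon5, is counted below with the other adhesion genes and had no peak in any list. Without wt replicate 2 the 4 IgLONs held 12 of 51, and without wt replicate 3 they held 11 of 40. Ntm (neurotrimin) had 23 and 24 peaks in E12KO and E47KO, against 10, 16 and 29 in wt. Its 15 consensus regions, 7 without wt replicate 2 and 8 without wt replicate 3, placed it number 8 among 12140 genes. Of the 15, 11 were inside the gene and 7 were in all 5 lists. The highest fold, 16.3, was at chr9:29580581-29581476 in its first intron, with 3 more regions in all 5 lists within 50 kb (folds 5.87, 8.91 and 12.8). Ntm had 2 consensus regions without an E12KO peak. One lay in an intron (chr9:29125309-29125575), where E47KO had a peak. The other was a promoter 59 bp from the start (chr9:29770574-29770996, wt replicates 2 and 3), which was without a peak in E47KO too.

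Opcml had 20 and 14 peaks in E12KO and E47KO, against 3, 7 and 19 in wt, and 9 consensus regions, 7 inside its 1134 kb (3 consensus regions without wt replicate 2, 1 without wt replicate 3). Only the one at chr9:27536264-27537018, 62.2 kb before the start, was in all 5 lists (fold 6.05), and E47KO had no peak at chr9:27424750-27425318. Lsamp had 11 peaks in each knockout, against 2, 6 and 9 in wt, and 5 consensus regions in 2192 kb. Of these, 2 were in all 5 lists, 103 kb before the start (fold 6.05) and inside the gene 525 kb after it (fold 9.26). Negr1 had 6 and 4 peaks, against 1, 3 and 7 in wt, and 2 consensus regions, both in the knockouts and in wt replicates 2 and 3. All 5 consensus regions of Lsamp and both of Negr1 thus had a peak in each knockout.

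**Figure D3:**
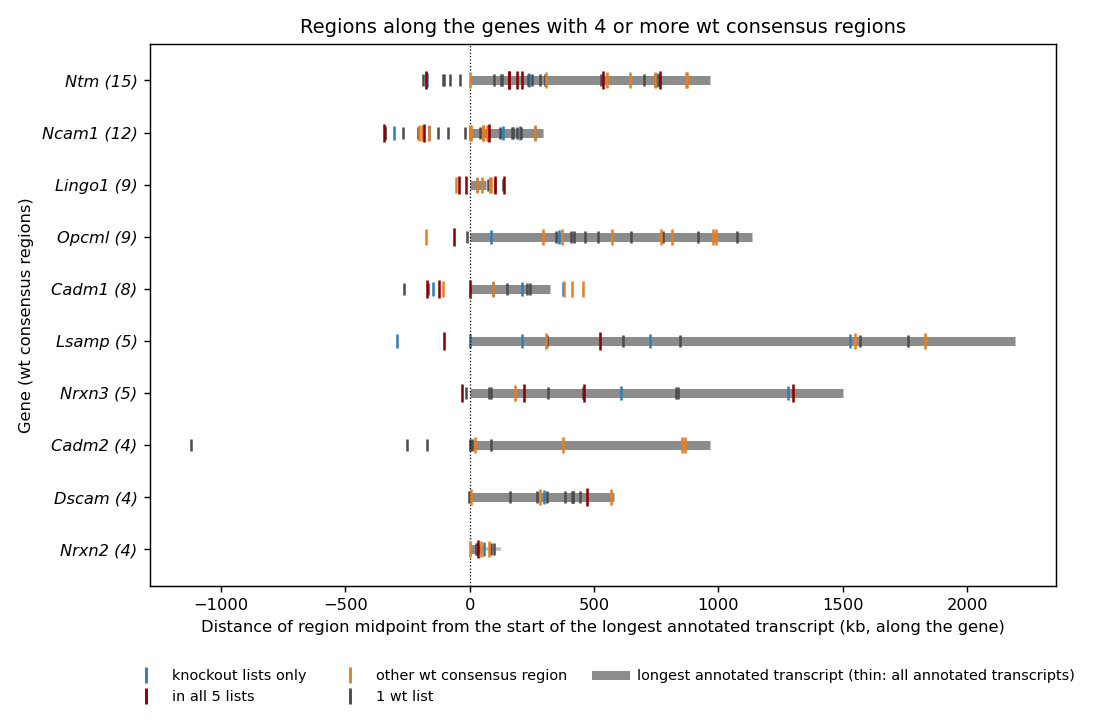
Position of every region (vertical ticks, by midpoint in kb from the start of the longest annotated transcript, in the direction of transcription) at the 10 genes with 4 or more wt consensus regions; blue ticks are knockout lists only, dark red all 5 lists, orange other wt consensus regions and dark grey 1 wt list. Regions were spread along Ntm, Opcml, Lsamp and Nrxn3, and Ntm, Ncam1 and Cadm1 also had several of them before the start.

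Contactins are membrane-anchored axonal proteins with immunoglobulin and fibronectin domains. The 6 genes had 7 consensus regions, 3 of them at promoters or inside the genes, which is 0.0950 per 100 kb of transcript. Cntn6 had 4 and 3 peaks in E12KO and E47KO, against 2, 2 and 5 in wt, and both of its consensus regions were in all 5 lists: the promoter (chr6:104442670-104443543, fold 7.83) and one 180 kb before the start (chr6:104263026-104263379, fold 7.12). Cntn4 had 2 and 1 peaks, against 1, 2 and 1 in wt, and its consensus region 286 kb before the start was in all 5 lists with a fold of 18.3 (chr6:105341712-105342299). Cntn5 had 3 and 4 peaks, against 1, 3 and 3 in wt, and 3 consensus regions, all in both knockouts. Its wt replicate 1 peak had the second highest fold of the adhesion genes, 26.9, and overlapped no peak in any other list (chr9:10909307-10909965, 4.86 kb before the start). Cntn2 (TAG-1) had 2 and 1 peaks, against 0, 1 and 1 in wt, with 1 consensus region. Cntn1 had 1 and 0 peaks, against 1, 0 and 1 in wt, and Cntn3 had 3 and 1, against 1, 1 and 0; neither had a consensus region. The Cntn3 peak of wt replicate 1 (fold 15.2) was also in that list alone.

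Peaks in wt replicate 1 alone were 14 of the 70 of the adhesion genes (20.0%), and 12.4% of all its peaks. Their median fold was 6.23, against 6.94 for those shared with another list; over all peaks of that list the medians were 6.10 and 7.78. Over the 70 peaks the fold had a median of 6.74 (2.43 to 34.5), against 7.48 over all 6814.

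Contactin-associated proteins join contactins in complexes along myelinated axons. Cntnap1, of the paranodes, had 1 peak in each knockout, against 1, 0 and 1 in wt, at 1 consensus region near the end of the gene (chr11:101050824-101051500, fold 5.70). Cntnap2, one of the longest mouse genes with 2241 kb in the tables, had 0 and 1 peaks in E12KO and E47KO, against 0, 1 and 0 in wt, at 1 region 331 kb before the start. Cntnap4 had 1 peak in each knockout, against 0, 0 and 2 in wt, and neither it nor Cntnap2 had a consensus region.

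NCAMs are homophilic adhesion molecules of neurons. Ncam1 had 26 and 22 peaks in E12KO and E47KO, against 4, 12 and 24 in wt, and its 12 consensus regions placed it number 17 among all genes. All 12 had a peak in each knockout, and the gene had 3 consensus regions without wt replicate 2 and 3 without wt replicate 3. Of these, 7 were at the promoter or inside the gene of 297 kb, 5 of them in the first intron, and the other 5 lay 163 to 344 kb before the start, including the one with the highest fold (chr9:49788413-49789370, 8.63, all 5 lists). Ncam2 had 4 and 3 peaks, against 1, 3 and 4 in wt, and E12KO had no peak at 1 of its 3 consensus regions, which lies 1.50 Mb from the start (chr16:82701161-82701556).

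The L1 family links axonal contacts to the membrane skeleton. Besides L1cam, which had no peak, Nfasc (neurofascin) had 3 and 2 peaks in E12KO and E47KO, against 1, 3 and 3 in wt. Its region in intron 1 was in all 5 lists (chr1:134623951-134624409, fold 7.76), and E47KO had no peak at chr1:134656260-134656752, 18.1 kb before the start. Nrcam had 2 peaks in each knockout, against 0, 1 and 3 in wt. Chl1 had 6 and 5, against 1, 1 and 3 in wt, and 2 of its 7 regions were in both knockouts and in no wt list. Nrcam and Chl1 each had 1 consensus region, in the first intron and in both knockouts.

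DSCAMs let neurites of the same cell recognise one another, and all 7 of their consensus regions lay inside the genes. Dscam had 8 peaks in each knockout, against 4, 3 and 11 in wt. Its region in all 5 lists was at chr16:96922149-96922857 (fold 8.54), and neither knockout had a peak at the region in an intron at chr16:96824358-96824704 (wt replicates 2 and 3). Dscaml1 had 7 and 4 peaks in E12KO and E47KO, against 6, 2 and 4 in wt. An intron region at chr9:45295365-45295892, with the highest fold of the family, 23.1, was in all 3 wt lists and E12KO and not in E47KO. The Dscaml1 region in all 5 lists was at chr9:45485498-45486572 (fold 9.58).

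LINGOs are leucine-rich repeat proteins of neurons, and Lingo1 is a co-receptor of the Nogo receptor complex. Their 2 genes had very different counts. Lingo1, 66.8 kb long, had 11 and 10 peaks in E12KO and E47KO, against 7, 7 and 11 in wt, and 9 consensus regions. Of these, 7 were intergenic on either side of the gene and 4 were in all 5 lists, the highest fold being 15.4 at chr9:56431136-56431826. The region at chr9:56586541-56587132, 53.8 kb before the start (fold 5.54), was in all 3 wt lists and in neither knockout. Lingo2, 1245 kb long, had 1 and 2 peaks, against 0, 2 and 3 in wt, and no consensus region.

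Length and number of regions were only loosely related. Across the 40 genes Spearman's rho between geneLength and consensus regions was 0.25, and across all 12140 genes it was 0.23; genes share libraries and neighbours, so this is a description. Under 100 kb, 13 of 15 adhesion genes had a consensus region (86.7%), as did 49.5% of all such genes. At 100 to 500 kb these were 8 of 12 (66.7%) and 72.1%, and from 500 kb up 10 of 13 (76.9%) and 80.4%. Per 100 kb of transcript, the regions at promoters and inside the genes numbered 3.18, 0.530 and 0.278 in these 3 length classes, and 1.50, 0.701 and 0.329 for all genes. The shortest class holds Nrxn2 and Lrrtm4, whose regions reach beyond the longest transcript in the tables. Without them, 11 of 13 genes had a consensus region (84.6%), with 2.33 regions per 100 kb. The 5 genes with most consensus regions, Ntm, Ncam1, Opcml, Lingo1 and Cadm1, held 53 of the 112 (47.3%). All 5 are on chromosome 9, as are Dscaml1 and Cntn5, and the share of all consensus regions on that chromosome was not counted. The set of 5 genes changes when 1 wt list is left out. Without wt replicate 2, Ncam1 and Opcml each had 3 regions, against 4 at Nrxn3. Without wt replicate 3, Opcml had 1 and Cadm1 2, against 4 at Nrxn3 and 3 at Nrxn2. Counting neighbours, 19 of the 112 regions (17.0%) had at least 3 other consensus regions within 50 kb, against 19.4% of all consensus regions, and the most, 4, was at Ncam1.

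**Figure D4:**
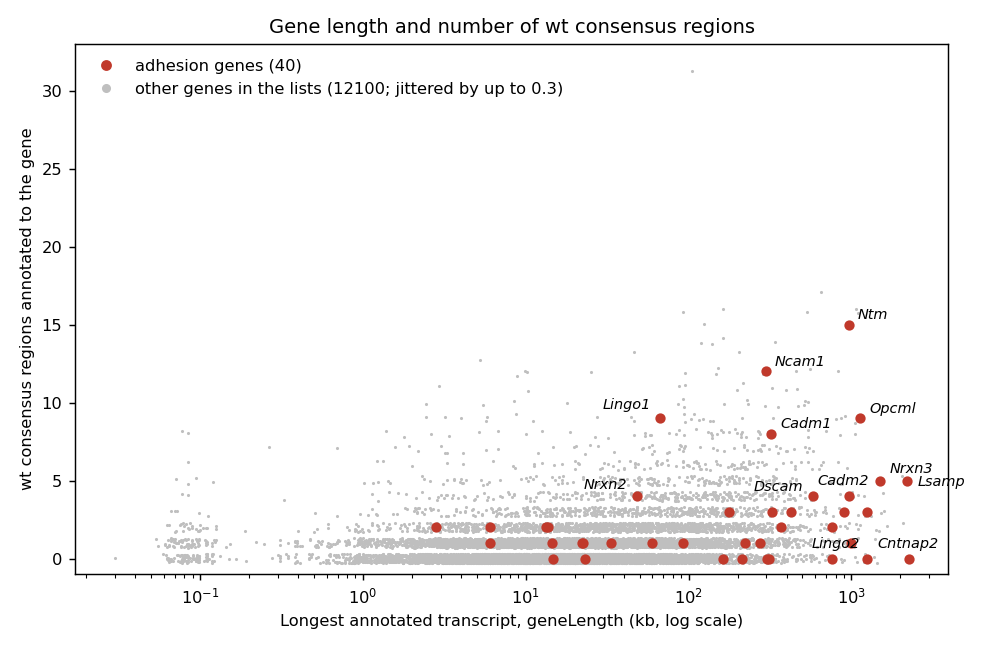
Number of wt consensus regions annotated to a gene (y axis) against the length of its longest annotated transcript (x axis, kb, log scale), for 40 adhesion genes (red) and the other genes named in the lists (grey, jittered vertically by up to 0.3). Ntm with 15 regions and Ncam1 with 12 stand at the top of the adhesion genes, while Lingo2 and Cntnap2 had none at 1245 and 2241 kb.

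Most consensus regions of the adhesion genes were also in both knockouts. Of the 112, 97 (86.6%, interval 78.9 to 92.3) had a peak in both, where 92.0% of all consensus regions did. E12KO had no peak at 6 (5.36%, interval 1.99 to 11.3), where it had none at 3.36% of all. E47KO had no peak at 13 (11.6%, interval 6.33 to 19.0), where it had none at 6.5% of all. At 4 regions, those of Cadm4, Dscam, Ntm and Lingo1 given above, neither knockout had a peak (3.57%, interval 0.982 to 8.89), against 1.87% of all. The interval for E12KO held the value of all regions, and that for E47KO had its lower end just under it. In all 5 lists were 36 (32.1%), against 33.7% of all.

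The shares without a peak moved with the length of the list looked up, and the wt lists were looked up in the same way for comparison. Of 100 adhesion gene regions in wt replicates 2 and 3, 5 had no peak in E12KO (interval 1.64% to 11.3%), 10 none in E47KO (4.90% to 17.6%) and 61 none in wt replicate 1 (all genes 1.77%, 4.01% and 61.6%). Here the E47KO interval lay above the value of all genes. It counts regions as independent, yet 3 of the 10 were at 1 gene, Nrxn2, and it was not recomputed without that gene. Of 51 regions in wt replicates 1 and 3, 2 had none in E12KO, 6 none in E47KO (4.44% to 23.9%) and 12 none in wt replicate 2 (all genes 4.08%, 7.38% and 23%). Of 39 in wt replicates 1 and 2, 1 had none in E12KO, 3 none in E47KO (1.62% to 20.9%) and 0 of 39 none in wt replicate 3, an exact interval of up to 9.03% (all genes 0.678%, 2.06% and 1.1%). Of the adhesion gene regions, only those of this last set were without a knockout peak more often than without a peak of the wt list left out.

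**Figure D5:**
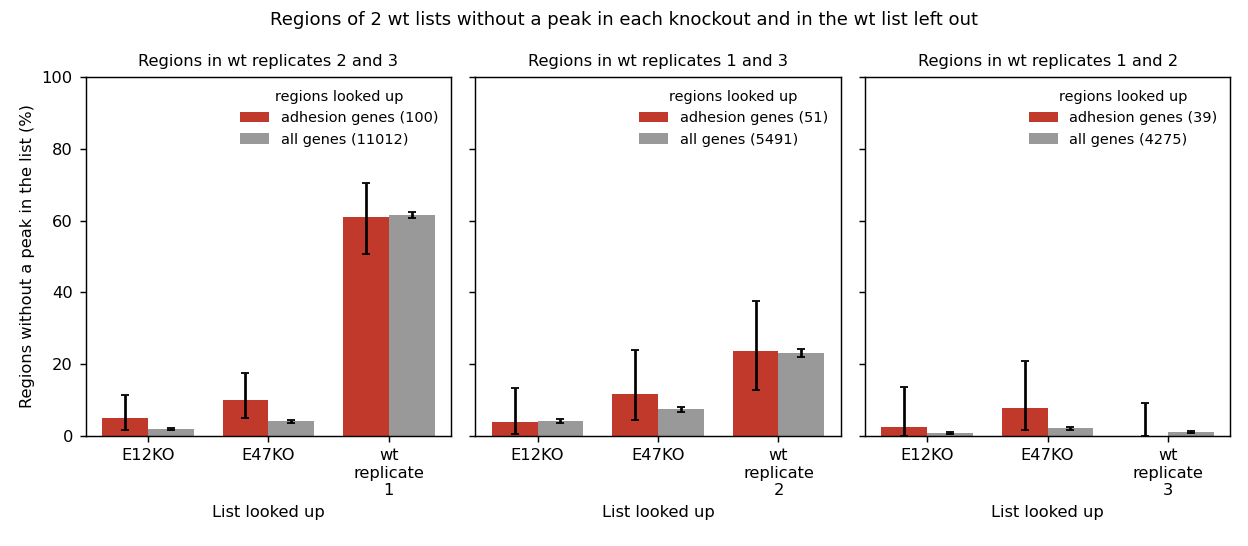
Share of regions of 2 wt lists that had no peak in E12KO, in E47KO and in the wt list left out (x axis), for adhesion genes (red) and all genes (grey), with exact 95% intervals and the number of regions in the legend. The wt list left out lacked 61, 12 and 0 of the adhesion gene regions, against 5, 2 and 1 for E12KO and 10, 6 and 3 for E47KO.

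By place, the regions without an E47KO peak were 4 of 14 at promoters (28.6%, interval 8.39 to 58.1), 6 of 61 inside the genes (9.84%, 3.70 to 20.2) and 3 of 32 in intergenic sequence (9.38%, 1.98 to 25.02). Over all genes these shares were 7.66%, 6.35% and 6.03%. Of the 4 promoters, 2 were those of Nrxn2, and the others were those of Cadm4 and Ntm, which were also without an E12KO peak. Regions in 2 wt lists were without an E47KO peak at 10 of 73 and those in 3 wt lists at 3 of 39, namely Nrxn2 (fold 20.6), Dscaml1 (fold 23.1) and Lingo1 (fold 5.54). Over all genes these shares were 9.07% and 1.58%.

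In the other direction, 8 of the 313 regions (2.56%) were in both knockouts and in no wt list, where 4.35% of all 33233 regions were. These were 2 at Chl1 and 1 each at Nrxn3, Lsamp, Mdga1, Nlgn1, Dscaml1 and Lingo1. The count rests on the long list of wt replicate 3: without it, 65 regions were in both knockouts and in no wt list. A further 31 regions were in E12KO alone (9.9%) and 15 in E47KO alone (4.79%), where 9.56% and 5.4% of all regions were. In 1 wt list were 147 (46.96%, against 43.6% of all regions), 113 of these in wt replicate 3. Of those 113, 90 had a peak in a knockout, against 8 of 17 for wt replicate 2 and 3 of 17 for wt replicate 1. Over all regions, these counts were 9367 of 11896, 436 of 1466 and 290 of 1133 for wt replicates 3, 2 and 1.

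Another 39 genes for synaptic adhesion (teneurins, latrophilins, SLITRKs, LAR-type receptor phosphatases, netrin-G proteins and their ligands, calsyntenins, sidekicks, KIRRELs and others) had peaks at 34, and 25 of the 34 had a consensus region (73.5%). Tenm4, a teneurin and ligand of latrophilins, had the most, 8, with 11 and 10 peaks in E12KO and E47KO, against 4, 7 and 11 in wt. Kirrel3, an immunoglobulin adhesion molecule, had 14 and 11 peaks, against 6, 6 and 14 in wt, and 5 of its 7 consensus regions were in all 5 lists. Tenm3 had 6 consensus regions and Elfn2, a leucine-rich repeat protein of synapses, had 5. E12KO had a peak at each consensus region of these 4 genes, and E47KO at each except 1 of Tenm3. Over all consensus regions, 3.36% were without an E12KO peak and 6.5% without an E47KO peak. Among the remaining genes, Sdk1 and Sdk2 each had 1 consensus region without a peak in either knockout. Lrrc4, Tenm2, Lrrc4b and Kirrel1 each had 1 without a peak in E47KO alone.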

How the data were processed

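The submitters' processing notes name mm9 as the build and list MACS2 2.1.0, BWA 0.7.13 and Picard 1.119, without settings. Each of the 5 deposited peak tables, 1 per library, gives positions, annotation, transcript and symbol. That of wt replicate 1 alone, as deposited, also holds a pileup signal, −log10 p and −log10 q values and a fold enrichment ratio per peak, as the authors' caller wrote them. These were used to describe peaks of that list. The deposited names mark wt replicate 1 with another false discovery rate than the remaining 4 lists, whose thresholds cannot be read from their values; an unequal threshold would change list lengths, consensus counts and the comparisons with wt replicate 1. Input was not analysed here.

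Peaks were matched to the 41 genes by symbol and gene ID. Regions were merged at an overlap of at least 1 bp with Python 3.11.15, pandas 2.3.3 and numpy 2.4.6. The merging was tested on simulated data. Distances run to the start of the annotated transcript from the midpoint of 1 peak of the region, because the tables measure to different peak edges. That peak came from wt replicate 3 where it held the region, otherwise from wt replicate 2, then wt replicate 1, then the knockouts. Intron numbers come from the lists other than wt replicate 1 where they hold the region. Intervals are exact Clopper-Pearson intervals at 95% (scipy 1.17.1). No test was made, and no DNA sequence of mm9 was used.

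The genes, families, further adhesion genes and comparisons were chosen with earlier results of these data known. Every member is given with its peaks per list. Positions are given by a rule: the strongest consensus region of a family by wt replicate 1 fold, regions without a peak in a knockout, regions in all 5 lists of genes with 1 to 3 regions, and the members with most consensus regions. Further positions were added after their values were seen. The alternatives tried were an overlap of 50% of the shorter peak, consensus in all 3 wt lists, distances within 10 and 100 kb, −log10 q of at least 5 in wt replicate 1, each wt list left out, and a gene named in every list. Leaving out Nrxn2 and Lrrtm4 from the shortest length class was added after seeing the data.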

Additional observations from a re-analysis of the deposited data

How the results depend on the processing

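Consensus regions, members with one, shares without a knockout peak, the share inside the gene and the knockout-only count stayed close to the values given (counts within 1.5 times, shares within their intervals) with an overlap of 50% of the shorter peak, with −log10 q of at least 5 in wt replicate 1 and with the gene named in every list; so did all 54 counts per gene and family. With consensus in all 3 wt lists there were 39 regions at 17 genes, 43.6% of them inside the gene. Within 10 kb of the start there were 18 regions at 13 genes, with 22.2% inside the gene, 22.2% without an E47KO peak and 1 region of both knockouts absent from wt. Within 100 kb there were 58 regions, and 4 of both knockouts absent from wt. Peaks of the adhesion genes within 10 kb numbered 36 in E12KO and 26 in E47KO, against 14, 16 and 34 in wt replicates 1, 2 and 3, and within 100 kb 117 and 90, against 41, 54 and 112. Leaving out 1 wt list gave 40 to 100 consensus regions at 17 to 27 genes, 8 to 65 regions of both knockouts absent from wt, 2.5% to 5% without an E12KO peak, 7.5% to 11.8% without an E47KO peak and 45.1% to 55% inside the gene. Of the 54 counts per gene and family, 36 fell by over 1.5 times with consensus in all 3 wt lists, 41 within 10 kb, 22 within 100 kb, and 5, 28 and 35 without wt replicates 1, 2 and 3. The cause of these shifts was not tested, beyond the fewer peaks that each restriction keeps. No paired analysis was possible because each knockout has 1 library and no result comes from a test. Depth is unknown, so a missing peak may lie under a list's threshold.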
